A study of Homo sapiens with 18 samples.

Results

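The response to SYK knockdown was compared between PC-9 and HCC827, a pair of human lung adenocarcinoma cell lines that both carry an EGFR exon 19 deletion. SYK encodes a cytoplasmic tyrosine kinase that couples immune receptors to signalling in blood cells and is also expressed in many epithelial cells. Each line carried a lentiviral shRNA that targets SYK (shSYK) or its negative control (nc), and RNA-seq was run on 3 libraries of each of the 4 groups. The response of a gene in a line is the shSYK minus nc difference of its mean log2(FPKM + 1), where FPKM is the number of fragments scaled to gene length and to library size. The difference of responses is the response in PC-9 minus that in HCC827. A positive value means that the gene rose more or fell less in PC-9, or rose there and fell in HCC827. It does not say which line had the higher level. This difference was estimated for the 10594 of 58302 genes whose mean FPKM reached 1 in each line. A single shRNA clone was used, so an effect of SYK loss and an off-target effect of that clone cannot be told apart, and nothing in the sources says that the libraries of a group came from separate cultures, so p-values measure the spread between these libraries.

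EGFR drives growth in such cells mainly through the ERK cascade, whose feedback genes and immediate early factors follow its activity within hours. Epithelial cells express cadherins, claudins and keratins, and in the epithelial to mesenchymal transition they lose junction proteins and gain vimentin. YAP, the effector of the Hippo pathway, binds DNA through TEAD factors and induces matricellular genes such as CTGF, while cells of squamous type make cornified envelope proteins and S100 proteins.

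The libraries held between 7920099 and 12913607 reads on genes. Both lines expressed epithelial markers, with EPCAM between 84.3 and 120.7 FPKM in PC-9 and between 95.9 and 105.1 in HCC827. The leukocyte markers PTPRC and CD3E and the fibroblast markers COL1A2, COL3A1, DCN and LUM were at most 0.144 FPKM in every library. COL1A1 reached 8.29, PECAM1 14.4 and CDH5 2.57 FPKM in PC-9. The PC-9 nc group was more spread than the others, and its libraries PC-9 nc 1 and PC-9 nc 2 lay farthest from their group mean. The median absolute deviation of their genes from that mean was 0.206 and 0.181 on the log2 scale, against 0.0509 to 0.0696 in the other 10 libraries. PC-9 nc 3 differed from both as well. Chi-square divided by its degrees of freedom was 38.7 between nc 1 and nc 2. It was 14.3 between nc 1 and nc 3 and 9.47 between nc 2 and nc 3, against at most 6.41 within other groups.

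SYK itself fell alike in the lines. This gene lies at chr9:90801787-90898549 (hg38, plus strand). In PC-9 it stood at 7.31, 6.04 and 6.17 FPKM in the nc libraries and at 2.28, 1.64 and 2.34 in the shSYK libraries. In HCC827 the nc libraries had 9.05, 8.45 and 9.74 FPKM and the shSYK libraries 2.46, 3.16 and 3.36. The nc and shSYK groups did not overlap in either line, and mean FPKM was left at 32.1% of nc in PC-9 and 32.9% in HCC827. The responses were -1.29 and -1.34, and their difference was 0.06 (SE 0.17, 95% interval -0.31 to 0.42, limma adjusted p = 0.922).

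The response differed between the lines for 323 genes, 3.05% of those tested (limma, Benjamini-Hochberg adjusted p under 0.05 over all 10594 genes). It was higher in PC-9 for 169 genes (1.6% of those tested) and lower in PC-9 for 154 (1.45%). Most of these were genes that moved in HCC827. Of the 323, 217 were called in HCC827 and not in PC-9 (103 up and 114 down), 46 in PC-9 and not in HCC827 (22 up and 24 down), 24 in both in the same direction, 29 in both in opposite directions and 7 in neither. HCC827 also had more calls as a whole, with 1067 genes up (10.1%) and 1240 down (11.7%), against 293 up (2.77%) and 403 down (3.8%) in PC-9. A call in 1 line and not in the other does not show a difference, and only the 323 passed the test of the difference itself. The 4 groups share 1 estimate of spread per gene, so the test in each line also carries the scatter of the other. A missed test in PC-9 thus does not show that PC-9 did not respond. With each line fitted by itself, 112 genes were called in PC-9 and 4209 in HCC827. Leaving out PC-9 nc 1 raised the count of differing genes to 1919, which included each of the 322 still tested, and leaving out PC-9 nc 2 gave 412.

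Genes that responded alike were defined as called in each line in the same direction, with the 95% interval of the difference between -0.5 and 0.5. There were 215 of them, 2.03% of those tested, 95 up and 120 down. A further 132 genes called in both lines in 1 direction were neither alike by this limit nor different. Over all genes tested the correlation of the responses was r = 0.46 (Spearman correlation 0.48). This is a description across genes, which are not independent and share the 12 libraries, and r was 0.25 without PC-9 nc 1. Median GC content was 53.2% for genes with a higher response in PC-9, 47.5% for those with a lower one and 48.6% for all genes tested, and its part in the result was not tested.

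**Figure D1:**
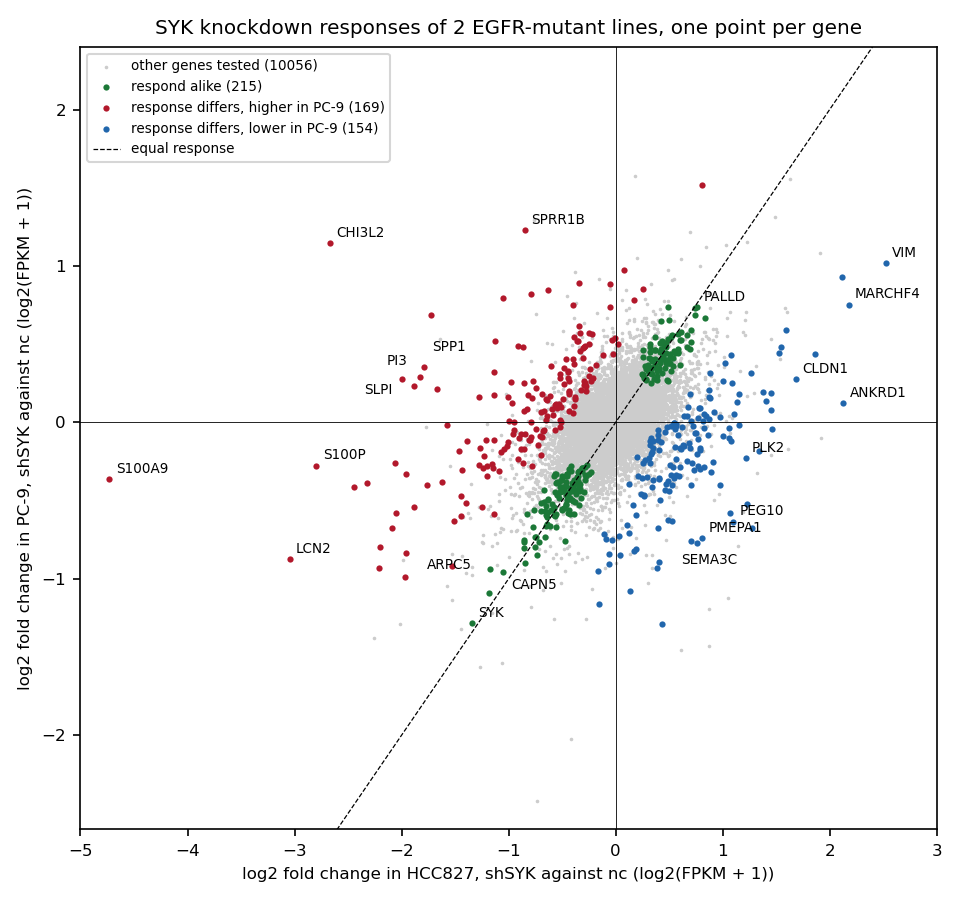
Response to SYK knockdown in HCC827 (horizontal axis) and PC-9 (vertical axis) as the log2 fold change of FPKM + 1, with 1 point for each of the 10594 genes. The 323 differing genes lie off the dashed line of equal response, S100A9 and CHI3L2 farthest to the upper left, and the 215 alike genes, SYK included, lie along it.

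The largest positive differences came from genes that fell in HCC827. S100A9, which encodes a calcium-binding subunit of calprotectin, differed most among the named genes. Its FPKM in HCC827 was 349, 313 and 461 in nc and 6.07, 16.8 and 20.6 in shSYK, a 25.8-fold fall in the mean. In PC-9 it was 2250, 1853 and 2106 in nc and 1634, 1592 and 1583 in shSYK. The groups were apart in both lines. The PC-9 response of -0.36 did not pass the test (limma adjusted p = 0.559), with an SE of 0.31 from the spread shared with HCC827. The difference of responses for S100A9 was 4.37 (SE 0.44, adjusted p = 5.73e-04). Its partner S100A8 fell in both lines, by 0.80 in PC-9 and by 2.2 in HCC827 on the log2 scale, and these responses differed by 1.41 (adjusted p = 0.0047).

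The same side held S100P, LCN2, SPP1, PI3 and SLPI. LCN2 encodes lipocalin 2, which binds bacterial siderophores. Its FPKM in HCC827 was 1419, 1181 and 2086 in nc and 97.5, 220 and 286 in shSYK, and in PC-9 it was 793, 508 and 648 in nc and 338, 338 and 369 in shSYK. All shSYK libraries were below all nc libraries in each line. The fall passed the test in HCC827 (response -3.04, adjusted p = 8.26e-05) and not in PC-9 (-0.88, adjusted p = 0.142). Each response had an SE of 0.33 from the shared spread, and the difference was 2.17 (SE 0.47, adjusted p = 0.0259). PI3 and SLPI encode protease inhibitors of mucosal surfaces and lie near each other on chromosome 20 (chr20:45174876-45176544 and chr20:45252239-45254564). PI3 fell in HCC827 from 4.32, 4.57 and 5.63 FPKM to 0.347, 0.978 and 0.635, where the lowest library held 2 reads, while its PC-9 libraries ranged from 484 to 848 and the groups overlapped. SLPI fell in HCC827 from 51.8, 46.0 and 76.9 FPKM to 10.6, 15.3 and 19.5, against 294 to 366 in nc and 374 to 405 in shSYK of PC-9. The differences of responses were 2.12 for PI3 (adjusted p = 0.00123) and 2.11 for SLPI (adjusted p = 0.00247).

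SPP1, which encodes the secreted phosphoprotein osteopontin, fell in HCC827 from 6.08, 5.83 and 3.96 FPKM to 0.906, 0.810 and 0.671. Its PC-9 libraries had 92.1, 105 and 105 FPKM in nc and 137, 128 and 121 in shSYK, a response of 0.35 (adjusted p = 0.123), and the responses differed by 2.14 (SE 0.18, adjusted p = 1.45e-04). S100P had a difference of 2.52 (SE 0.52, adjusted p = 0.0207), from a response of -2.80 in HCC827 and -0.28 in PC-9. KRT6A, a keratin of stratified and wounded epithelia, fell in HCC827 from 11.6, 12.5 and 12.4 FPKM to 1.85, 3.76 and 3.63 and had 0.95, 0.499 and 0.721 in nc and 2.42, 1.73 and 1.25 in shSYK of PC-9. Its difference of responses was 2.42 (SE 0.28, adjusted p = 0.00103).

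Of the 25 listed cornified envelope and squamous genes, 9 were expressed highly enough to be tested, and 7 of these differed, 6 higher and 1 lower in PC-9, beside 3.05% of all genes tested. The 6 were SPRR1B, KRT6A, S100A8, S100A9, S100P and PI3. The median difference of the 9 was 2.07, beside 0.02 over all genes tested. This list and the others below were drawn up with earlier results of these data known. Shares of their members are therefore descriptions and not independent tests. KRT4 was the exception, with a difference of -1.10 (adjusted p = 0.037), and SPRR1A rose in both lines, by 1.0 in PC-9 and 0.79 in HCC827.

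**Figure D2:**
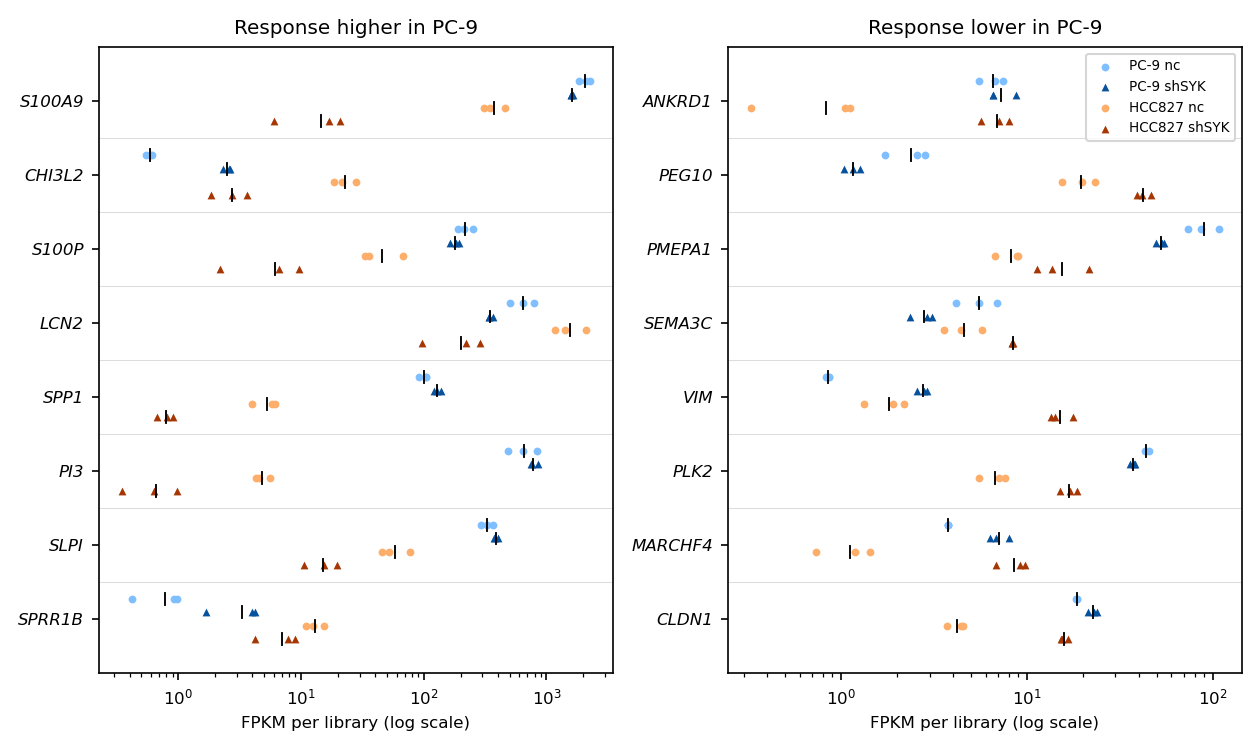
FPKM per library (log axis) of the 8 named genes with the largest differences in each direction, with 3 points per group and a black bar at the mean. S100A9 and LCN2 fell by far more in HCC827 than in PC-9, and ANKRD1, VIM and MARCHF4 rose most in HCC827.

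Promoter sequence is shown for SPRR1B and LCN2, which hold AP-1 letters. AP-1 factors are known regulators of such genes, and several of their own genes were measured. The promoters of S100A9, CHI3L2, S100P and SPP1, which also had large positive differences, hold no AP-1 letters and are not shown. The sequences are the bases before the RefSeq start (GRCh38.p14, strand of the gene, 5′ to 3′), at chr1:153030953-153031202 for SPRR1B and chr9:128149203-128149452 for LCN2. Capitals mark AP-1 letters (TGANTCA) and TEAD letters (GGAATG) on either strand.
SPRR1B: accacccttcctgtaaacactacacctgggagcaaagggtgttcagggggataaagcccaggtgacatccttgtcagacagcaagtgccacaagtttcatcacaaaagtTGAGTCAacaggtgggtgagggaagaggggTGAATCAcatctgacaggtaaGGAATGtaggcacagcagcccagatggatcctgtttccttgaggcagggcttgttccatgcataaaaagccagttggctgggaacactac
LCN2: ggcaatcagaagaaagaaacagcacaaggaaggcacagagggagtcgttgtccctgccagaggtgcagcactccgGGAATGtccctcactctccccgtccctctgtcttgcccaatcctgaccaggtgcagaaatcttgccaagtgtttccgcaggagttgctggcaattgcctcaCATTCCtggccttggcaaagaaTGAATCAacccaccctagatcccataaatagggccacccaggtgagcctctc
AP-1 letters stood in 9 of the 126 matched promoters of genes with a higher response in PC-9 (7.14%), in 5 of 109 with a lower one (4.59%) and in 3.64% of the promoters of all genes tested. Genes that responded alike had them in 6 of 77 promoters of those that rose (7.79%) and 5 of 91 of those that fell (5.5%). A share of this size was thus not particular to genes with a higher response in PC-9. These matches are descriptions of the letters and not of bound sites.

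On the other side, ANKRD1 and CTGF led a group of genes that rose in HCC827 and did not pass the test in PC-9. ANKRD1, an ankyrin repeat protein and a known YAP target, had 1.05, 1.12 and 0.328 FPKM in nc and 7.99, 7.08 and 5.64 in shSYK of HCC827. In PC-9 it had 5.56, 7.48 and 6.79 FPKM in nc and 8.70, 6.56 and 6.62 in shSYK, and these groups overlapped. The response was 2.13 in HCC827 (adjusted p = 1.84e-05) and 0.12 in PC-9 (adjusted p = 0.762), a difference of -2.01 (SE 0.26, adjusted p = 0.00158). CTGF, a matricellular growth factor, rose in HCC827 from 1.18, 1.38 and 0.675 FPKM to 4.62, 3.98 and 4.07, and stood in PC-9 at 3.41, 3.64 and 3.44 in nc and 3.34, 3.18 and 2.44 in shSYK. The difference for CTGF was -1.52 (SE 0.19, adjusted p = 0.00123). The study's immunoblots of CTGF protein went the other way, with a rise in PC-9 and little change in HCC827. Those measured protein and the values here are RNA, and the cause of the disagreement was not tested. In both genes the knockdown libraries of HCC827 came near the level that PC-9 had in nc.

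Of 15 listed YAP targets, which were all tested, 10 rose, 5 did not pass the test and none fell in HCC827, beside 10.1% of all genes tested that rose there. In PC-9, 1 of them (TGFB2) rose, beside 2.77% of all genes. The difference was negative for 13 of the 15 and passed the test for 2, ANKRD1 and CTGF, with a median of -0.46. Over all genes tested it was negative for 4876 of 10594, and 3.05% differed in either direction. F3 (coagulation factor III) had a difference of -1.13, LATS2 (a Hippo kinase) of -0.51 and AXL (a receptor kinase) of -0.65, none of which passed the test (adjusted p = 0.081, 0.08 and 0.087). Without PC-9 nc 2, 4 of the 15 were called lower in PC-9, and without PC-9 nc 1, and also after log2 FPKM had been corrected for length and GC content, 8 were.

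The promoters of ANKRD1 (chr10:90921088-90921337, minus strand) and CTGF (chr6:131951373-131951622, minus strand) are shown because TEAD factors carry YAP to DNA. Capitals mark the TEAD letters and, where present, the AP-1 letters given above and Sp1 letters (GGGCGG), on either strand.
ANKRD1: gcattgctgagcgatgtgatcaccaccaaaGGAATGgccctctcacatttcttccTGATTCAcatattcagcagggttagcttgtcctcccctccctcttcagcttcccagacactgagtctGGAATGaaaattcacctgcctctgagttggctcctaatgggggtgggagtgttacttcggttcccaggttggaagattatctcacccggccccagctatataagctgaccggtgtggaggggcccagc
CTGF: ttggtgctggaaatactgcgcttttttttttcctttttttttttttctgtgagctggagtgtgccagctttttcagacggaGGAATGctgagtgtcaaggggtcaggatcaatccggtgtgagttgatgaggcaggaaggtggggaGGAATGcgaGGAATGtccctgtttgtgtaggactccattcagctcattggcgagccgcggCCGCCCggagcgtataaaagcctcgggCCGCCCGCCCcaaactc
TEAD letters stood in 5 of the 12 YAP target promoters found in the table (41.7%), in 16 of 109 promoters of genes with a lower response in PC-9 (14.7%), in 12 of 126 with a higher one (9.52%) and in 9.08% of those of all genes tested. Genes that responded alike had them in 6.49% of promoters of those that rose and 9.89% of those that fell. Because YAP binds DNA through TEAD factors, the share among known YAP targets describes that list and not the response to knockdown.

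VIM, MARCHF4 and CLDN1 had higher levels in shSYK than in nc in both lines, and by more in HCC827. VIM encodes vimentin, the intermediate filament of mesenchymal cells. Its FPKM in PC-9 was 0.867, 0.867 and 0.837 in nc and 2.56, 2.79 and 2.92 in shSYK, and in HCC827 it was 2.17, 1.91 and 1.33 in nc and 17.8, 14.2 and 13.5 in shSYK. Mean FPKM rose 3.22-fold in PC-9 and 8.39-fold in HCC827, with a difference of -1.51 on the log2 scale (SE 0.17, adjusted p = 0.00103). MARCHF4, a membrane-bound ubiquitin ligase, rose 1.87-fold in PC-9 and 7.69-fold in HCC827 (difference -1.43, adjusted p = 0.00257). CLDN1, a claudin of tight junctions, had 18.4, 18.6 and 18.6 FPKM in nc and 23.8, 23.0 and 21.3 in shSYK of PC-9 (adjusted p = 0.0671), and rose in HCC827 from 3.70, 4.44 and 4.54 to 15.4, 16.7 and 15.2 (difference -1.41, SE 0.12, adjusted p = 1.45e-04). PLK2, a stress-induced kinase, rose 2.51-fold in HCC827 and had a response of -0.23 in PC-9 (adjusted p = 0.23). Its difference was -1.44 (SE 0.15, adjusted p = 5.75e-04).

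For 29 genes, 0.274% of those tested, the lines moved in opposite directions with each response and the difference past the test. Of these, 12 rose in PC-9 and fell in HCC827, and 17 fell in PC-9 and rose in HCC827. The first 12 include CHI3L2, SPRR1B, ID3, RHOV and TGFBI. CHI3L2, a secreted chitinase-like protein without enzyme activity, rose in PC-9 from 0.587, 0.548 and 0.611 FPKM to 2.56, 2.64 and 2.30 and fell in HCC827 from 21.5, 18.5 and 28.0 to 1.85, 2.74 and 3.64. The lines thus differed 39.0-fold in nc and overlapped in shSYK, and the difference of responses was 3.82 (SE 0.24, adjusted p = 1.75e-05).

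SPRR1B, a cornified envelope precursor, went from 0.975, 0.416 and 0.928 FPKM to 1.67, 4.21 and 3.97 in PC-9 and from 10.9, 12.5 and 15.4 to 4.20, 7.89 and 8.86 in HCC827. Its lowest library held 3 reads, and the difference was 2.07 (SE 0.39, adjusted p = 0.0132). ID3, an inhibitor of basic helix-loop-helix factors and a target of BMP and TGF-beta signals, rose in PC-9 from 16.8, 9.53 and 12 FPKM to 23.3, 20.4 and 23.4 and fell in HCC827 from 70.9, 61.5 and 67.7 to 30.7, 31.4 and 32.9 (difference 1.85, SE 0.21, adjusted p = 0.00103). RHOV, an atypical small GTPase, rose 1.79-fold in PC-9 and fell 1.86-fold in HCC827. TGFBI, an extracellular matrix protein induced by TGF-beta, rose 1.71-fold in PC-9 and fell 1.32-fold in HCC827.

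The 17 that fell in PC-9 include SEMA3C, PMEPA1, PEG10 and FOXC1. SEMA3C, a secreted semaphorin, fell in PC-9 from 4.17, 6.88 and 5.52 FPKM to 3.09, 2.92 and 2.34 and rose in HCC827 from 4.44, 5.77 and 3.57 to 8.30, 8.48 and 8.36. From overlapping nc levels its shSYK groups came to lie apart, with a difference of -1.53 (SE 0.23, adjusted p = 0.00347). PMEPA1, which dampens TGF-beta signalling, fell in PC-9 from 108, 73.6 and 86.5 FPKM to 53.6, 49.4 and 54.5 and rose in HCC827 from 8.94, 8.83 and 6.77 to 21.7, 13.6 and 11.3 (difference -1.55, adjusted p = 0.011). PEG10, an imprinted gene derived from a retrotransposon, fell 2.06-fold in PC-9 and rose 2.18-fold in HCC827 (difference -1.73, adjusted p = 0.00123). FOXC1, a forkhead factor, fell 1.59-fold in PC-9 and rose 1.68-fold in HCC827 (difference -1.15, adjusted p = 0.00675).

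**Figure D3:**
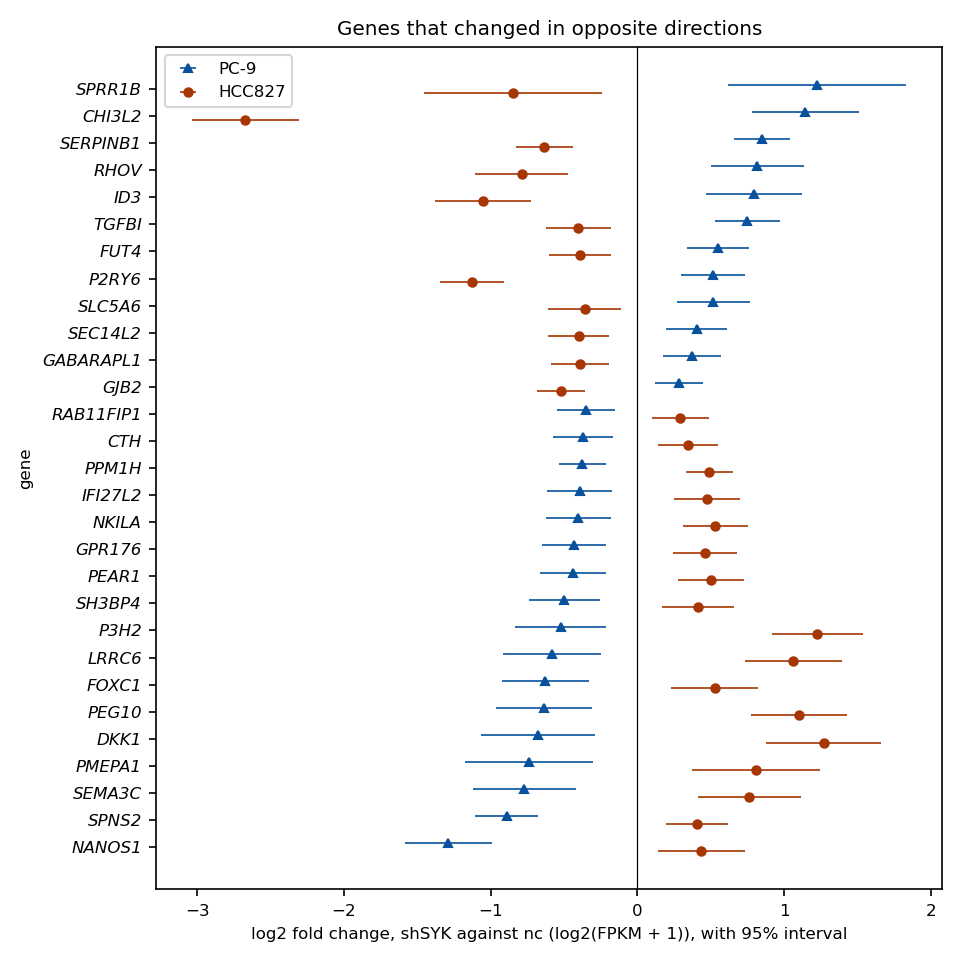
Log2 fold changes of FPKM + 1 in PC-9 (triangles) and HCC827 (circles), with 95% intervals, of the 29 genes that changed in opposite directions. CHI3L2 has the widest gap, at 1.15 in PC-9 and -2.67 in HCC827.

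Genes of the TGF-beta response did not share 1 direction. Of 12 listed targets tested, 5 differed, ID1, ID3, TGFBI and BAMBI higher and PMEPA1 lower in PC-9, beside 3.05% of all genes tested. ID3, TGFBI and PMEPA1 changed in opposite directions between the lines, as did 0.274% of all genes. ID1, a relative of ID3, fell in both, from 56.5, 35.3 and 46.1 FPKM to 29.3, 24.2 and 30.8 in PC-9 and from 369, 355 and 429 to 71.2, 89.4 and 111 in HCC827 (difference 1.42, SE 0.26, adjusted p = 0.0107). BAMBI, a decoy receptor, fell by 1.21 on the log2 scale in HCC827 and had a response of -0.12 in PC-9. The ligand gene TGFB1 differed by -0.07 (95% interval -0.68 to 0.55, adjusted p = 0.951).

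Among 14 immediate early factors tested, EGR1, FOS and IER3 differed, each falling in HCC827, beside 3.05% of all genes tested. The count of 3 became 7 without PC-9 nc 1 and 2 without PC-9 nc 2. EGR1, a zinc finger factor induced by ERK, had 59.2, 67.1 and 77.6 FPKM in nc and 22.6, 30.7 and 29.2 in shSYK of HCC827. In PC-9 it had 7.59, 5.87 and 7.52 in nc and 7.79, 6.36 and 9.86 in shSYK, and those groups overlapped (difference 1.44, SE 0.23, adjusted p = 0.00494). FOS had a difference of 0.93 (adjusted p = 0.0369) and IER3 of 1.31 (adjusted p = 0.0228). FOSL1, the AP-1 subunit the study followed, had responses of 0.27 in PC-9 and 0.41 in HCC827, with a difference of -0.14 (95% interval -0.64 to 0.37, adjusted p = 0.843). Neither response passed the test (limma adjusted p = 0.378 in PC-9 and 0.0976 in HCC827). The nc and shSYK groups overlapped in PC-9 and were apart in HCC827. The study reported a rise of FOSL1 (FRA1) transcript by PCR in HCC827 after knockdown, and of its protein in representative lines.

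Of 35 epithelial markers tested, 14 fell and 3 rose in HCC827 and 2 fell and 2 rose in PC-9. The difference itself passed for 4, of which 3 were higher and 1 lower in PC-9, and its median over the 35 was 0.33. Over all genes tested 11.7% fell and 10.1% rose in HCC827, 3.8% fell and 2.77% rose in PC-9, and 3.05% differed. TJP3, a tight junction scaffold, fell in HCC827 from 14.9, 14.1 and 20.8 FPKM to 5.17, 5.42 and 5.56 (difference 0.97, adjusted p = 0.0423). CDH3, P-cadherin, rose 1.48-fold in PC-9 and had a response of -0.25 in HCC827 (difference 0.82, adjusted p = 0.0147). The tight junction gene CLDN1 went the other way, with a rise in HCC827 and a difference of -1.41. CDH1, E-cadherin, had responses of -0.28 in PC-9 (adjusted p = 0.0708) and -0.44 in HCC827 (adjusted p = 0.00384), with a difference of 0.16 (95% interval -0.11 to 0.42, adjusted p = 0.594). Without PC-9 nc 1, 18 of the 35 were called higher and 2 lower in PC-9. Of 16 mesenchymal markers tested, 5 rose in PC-9, and 9 rose and 1 (TGFBI) fell in HCC827. The shares of all genes tested were 2.77% up in PC-9, and 10.1% up and 11.7% down in HCC827. VIM, CTGF and FSTL1 had a lower and TGFBI a higher response in PC-9, 4 of 16 beside 3.05% of all genes tested. The median difference of -0.27 became 0.10 with the filter at a mean FPKM of 5 and -0.15 without HCC827 shSYK replicate 1.

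Receptor and ligand genes differed in part. EGFR had responses of 0.36 in PC-9 and 0.35 in HCC827, with a difference of 0.01 (95% interval -0.40 to 0.42). MET had responses of -0.45 in PC-9 and -0.02 in HCC827, with a difference of -0.43 (95% interval -0.82 to -0.04, adjusted p = 0.249). Of the EGFR ligands, TGFA rose 1.44-fold in PC-9 and had 7.19, 7.77 and 9.18 FPKM in nc and 5.75, 6.92 and 6.57 in shSYK of HCC827 (difference 0.78, adjusted p = 0.00814). BTC rose 1.70-fold in HCC827 and had a response of -0.13 in PC-9 (difference -0.82, adjusted p = 0.0147). None of 10 other receptor tyrosine kinases tested differed by limma, 5 had an unadjusted p under 0.05 and limma-voom on the recovered reads called 2. Without PC-9 nc 1, and also after the length and GC correction, limma called 4 of the 10, 2 in each direction, and without PC-9 nc 2 it called 2.

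Immune genes gave single differences. BST2, an interferon-induced protein that tethers virus particles, fell in PC-9 from 7.24, 5.07 and 4.89 FPKM to 1.85, 2.33 and 2.29 and had 91.7, 94.7 and 101 in nc and 95.8, 105 and 116 in shSYK of HCC827. Its difference of -1.21 (SE 0.18, adjusted p = 0.00341) came from a change in PC-9, unlike most. GBP1 and BST2 were the 2 of 22 tested interferon-stimulated genes that differed, beside 3.05% of all genes tested, and the list's median difference was 0.00. Without PC-9 nc 1 the count was 6, 2 higher and 4 lower in PC-9, and without PC-9 nc 2 it was 3. PSMB9, an immunoproteasome subunit, rose 1.5-fold in HCC827 and had a response of -0.35 in PC-9 (adjusted p = 0.0349 for the difference). TNFAIP3, a brake on NF-kB, rose 1.70-fold in HCC827 and had a response of 0.10 in PC-9 (difference -0.57, adjusted p = 0.0279).

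Several metabolic and stress lists held 1 to 3 differing genes each, beside 3.05% of all genes tested. SLC3A2, the heavy chain of amino acid transporters, fell 2.03-fold in HCC827 and had a response of -0.15 in PC-9 (difference 0.86, adjusted p = 0.0309). CTH, an enzyme of cysteine synthesis, fell 1.42-fold in PC-9 and rose 1.29-fold in HCC827. MTHFD2, a mitochondrial folate enzyme, rose 1.37-fold in PC-9 and had a response of -0.02 in HCC827 (difference 0.46, adjusted p = 0.0412). These were the 3 differing genes of 32 tested ATF4 targets and tRNA synthetases, and without PC-9 nc 1 there were 11 higher and 1 lower in PC-9. HYOU1, a chaperone of the endoplasmic reticulum, EGLN3, an oxygen-sensing hydroxylase, and the NRF2 targets ABCC2 and TXNRD1 fell in HCC827 and had positive differences between 0.63 and 1.09. They were 1 of 18 chaperones, 1 of 28 glycolysis and hypoxia genes and 2 of 20 NRF2 targets, which became 6, 11 and 4 without PC-9 nc 1. SQLE, an enzyme of cholesterol synthesis, rose 1.92-fold in HCC827 and had a response of 0.21 in PC-9 (difference -0.67, adjusted p = 0.014). Of 31 sterol and fatty acid genes, 11 rose in HCC827 and 2 in PC-9, beside 10.1% and 2.77% of all genes tested. SQLE was the 1 of the 31 that differed, a share close to the 3.05% of all genes tested. The count that differed became 8 without PC-9 nc 1, 5 without PC-9 nc 2 and 9 after the length and GC correction.

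Cell cycle and survival regulators followed no common course. CDKN2B, an inhibitor of CDK4 and CDK6, rose 2.02-fold in HCC827 and had a response of 0.02 in PC-9 (difference -0.85, adjusted p = 0.00969). CDKN1A, which encodes p21, fell 1.51-fold in HCC827 and had a response of 0.31 in PC-9 (adjusted p = 0.0726), a difference of 0.83 (adjusted p = 0.00525). BMF, a pro-apoptotic BH3-only protein, fell in both lines, 2.21-fold in PC-9 and 3.29-fold in HCC827, and its responses differed by 0.62 (adjusted p = 0.0259). None of 30 genes of DNA replication and mitosis, 14 heat shock genes, 16 integrin and laminin genes, 33 respiratory chain subunits and 38 ribosomal protein genes passed the test of the difference by limma or by limma-voom. At an unadjusted p under 0.05 there were 1, 1, 6, 0 and 3 of them, in that order. Without PC-9 nc 1, where 1919 of 10634 genes were called, adjusted calls were made for 2, 4, 6, 5 and 19 of them. The ribosomal protein genes had a positive difference in 37 of 38, with a median of 0.25, beside 5718 of 10594 for all genes tested. The 19 called without PC-9 nc 1 were all higher in PC-9.

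**Figure D4:**
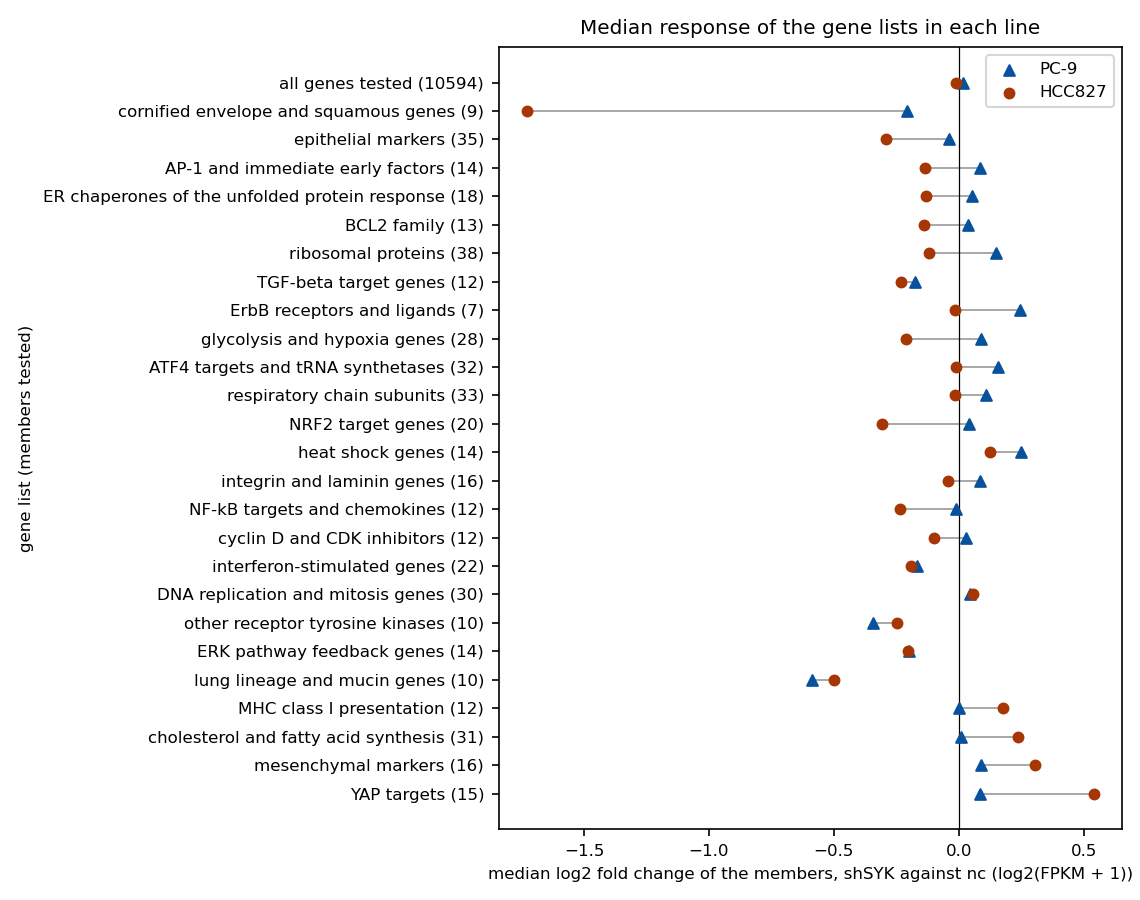
Median log2 fold change of FPKM + 1 in PC-9 (triangles) and HCC827 (circles) over the tested members of each gene list with at least 5 of them, with all genes tested at the top. The lines lie farthest apart for cornified envelope and squamous genes (-0.21 and -1.73) and for YAP targets (0.08 and 0.54) and close together for ERK feedback genes (-0.20 and -0.20).

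Of the genes that responded alike, PALLD led the rises. This gene, which encodes the actin-bundling protein palladin, rose from 6.01, 5.60 and 5.91 FPKM to 10.2, 10.2 and 10.8 in PC-9 and from 8.78, 8.22 and 7.77 to 16.0, 14.4 and 13.8 in HCC827. The groups were apart in both lines and the responses were 0.74 and 0.76, a difference of -0.02 (95% interval -0.26 to 0.21). CFL2, a cofilin that severs actin filaments, rose from 1.28, 1.81 and 1.48 FPKM to 2.96, 3.37 and 2.83 in PC-9 and from 11, 11.3 and 12.1 to 20.1, 19.8 and 19.8 in HCC827, with a difference of -0.06 (95% interval -0.33 to 0.21). Its nc level was 7.52-fold higher in HCC827. DYNLRB1, a dynein light chain, rose 1.67-fold in PC-9 and 1.70-fold in HCC827, KLF6, a zinc finger factor, 1.64-fold and 1.87-fold, and ANKRD33B 1.61-fold and 1.80-fold.

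Beside SYK, the alike falls were led by CAPN5, ARPC5, PTMA and TOR1B. ARPC5, a subunit of the Arp2/3 complex that nucleates actin branches, fell from 21.6, 19.5 and 21.7 FPKM to 10.2, 10.5 and 10.6 in PC-9 and from 13.1, 13.9 and 13.6 to 5.65, 5.48 and 5.13 in HCC827. Its difference of 0.24 (95% interval 0.03 to 0.46, adjusted p = 0.24) lay near the limit. PTMA, prothymosin alpha, fell from 343, 288 and 307 FPKM to 155, 169 and 178 in PC-9 and from 554, 516 and 565 to 301, 313 and 293 in HCC827, with a difference of -0.05 (95% interval -0.33 to 0.23). CAPN5, a calpain protease, fell 2.16-fold and 2.38-fold, and TOR1B, a torsin ATPase, 1.85-fold and 1.88-fold in PC-9 and HCC827.

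**Figure D5:**
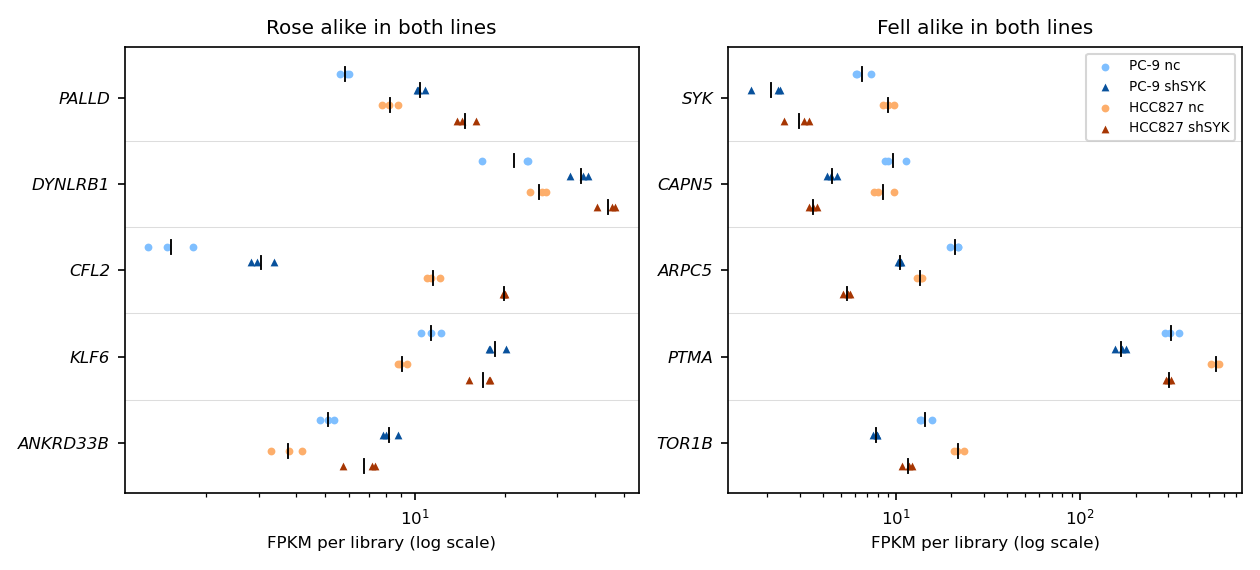
FPKM per library (log axis) of the 5 named genes that rose alike and the 5 that fell alike, with 3 points per group and a black bar at the mean. The nc and shSYK points of each gene are apart in both lines, and SYK was left at 32.1% and 32.9% of its nc mean.

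Of 10 lung lineage and mucin genes tested, 7 fell in PC-9 and 7 in HCC827, beside 3.8% and 11.7% of all genes tested, and GATA6, a lineage factor, rose in HCC827. SLPI was the 1 whose response differed. The median difference of -0.10 became 0.50 with the filter at a mean FPKM of 5. The count of 1 became 3 without PC-9 nc 1 and 4 after the length and GC correction. MUC20, a membrane mucin, fell from 17.4, 12.9 and 13.0 FPKM to 6.24, 6.41 and 6.14 in PC-9 and from 2.54, 2.26 and 2.27 to 1.11, 1.20 and 1.01 in HCC827. AGR2, a disulfide isomerase that mucin folding needs, fell from 14.2, 15.6 and 15.3 FPKM to 8.71, 11.6 and 9.77 in PC-9 and from 27.4, 27.1 and 27.5 to 10.4, 15.0 and 15.4 in HCC827. Neither met the limit for a like response, and no member of the list did. Of 14 ERK feedback genes tested, 3 responded alike and 1 (IER3) differed, beside 2.03% and 3.05% of all genes tested. The count of 1 became 2 without PC-9 nc 1, 3 without PC-9 nc 2 and 4 after the length and GC correction. CCND1, cyclin D1, fell by 0.52 in PC-9 and 0.47 in HCC827 on the log2 scale, SPRY1, an inhibitor of receptor kinase signalling, by 0.67 and 0.56, and DUSP6, an ERK phosphatase, by 0.44 and 0.40.

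Of the 45 named genes with a called difference, 15 lost the call when at least 1 library was left out, although none changed sign. The highest adjusted p over these and the other settings (limma) was 0.0725 for LCN2, 0.0594 for S100P, 0.0738 for IER3 and 0.104 for FOS. It was 0.11 for TJP3, 0.101 for PSMB9, 0.0823 for GBP1, 0.083 for TNFAIP3 and 0.0518 for BTC. It was 0.0941 for SLC3A2, 0.118 for MTHFD2, 0.102 for HYOU1, 0.117 for ABCC2, 0.0505 for SQLE and 0.0758 for BMF. TXNRD1 kept its call without any single library and lost it under quantile normalization (adjusted p = 0.119). The differences of S100A9, CHI3L2, SPP1, PI3, SLPI, SPRR1B, KRT6A, VIM, ANKRD1, CTGF, CLDN1, EGR1, ID1 and ID3 passed the test without any single library.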

How the data were processed

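The authors deposited FPKM per gene and library, computed from reads per gene, the gene length and a denominator per library that is not defined in the sources used here. Their processing notes name CASAVA, HISAT2 and the builds GRCh38, hg38, GRCh37 and hg19, and their methods name hg38. The annotation release is not given in the sources used here. FPKM times length gave whole reads for 100% of values (within 0.1), and these reads served for depth and for an alternative fit. Libraries of a group differed beyond sampling noise, so none is a duplicate (chi-square divided by its degrees of freedom 2.44 to 38.7, genes with 20 or more reads).

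Values of log2(FPKM + 1) of the 12 libraries were fitted together by limma 3.58.1 (R 4.3.3), with a variance trend and Benjamini-Hochberg adjustment over all genes tested. A fold change on this scale understates changes of low genes, so folds in the text are ratios of mean FPKM. The fit was tested on simulated data. Figures were drawn with matplotlib 3.10.9.

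Genes are named by rule: SYK and the genes the study followed, the 8 largest differences each way among called genes whose mean FPKM was 5 or more, the 4 largest opposite changes each way, the 5 largest alike changes each way, and up to 3 of the largest called differences of each of the 26 gene lists. SPRR1A, KRT4, S100A8, BAMBI, F3, LATS2, AXL, TGFB2, MUC20, AGR2, CCND1, SPRY1, DUSP6, GATA6 and FSTL1 are list members chosen after their values were seen. The members and lists were chosen with earlier results of these data known. Promoters came from RefSeq (GRCh38.p14), matched by symbol for 7795 of 10587 tested gene symbols. GC content came from GENCODE v44. One symbol that a spreadsheet had turned into a date was restored from the gene ID as MARCHF4. Counts of list members without a single PC-9 nc library and after the length and GC correction were added after seeing the data.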

Additional observations from a re-analysis of the deposited data

Results flagged for a closer look

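The response to SYK knockdown differed between PC-9 and HCC827, by a test of the difference itself (limma, adjusted p under 0.05), for 323 genes. The difference, PC-9 minus HCC827 on the log2 scale, follows for the named genes. Among genes with a higher response in PC-9 it was 4.37 for S100A9, 3.82 for CHI3L2, 2.52 for S100P, 2.42 for KRT6A, 2.17 for LCN2 and 2.14 for SPP1. Next in size it was 2.12 for PI3, 2.11 for SLPI, 2.07 for SPRR1B, 1.85 for ID3, 1.61 for RHOV and 1.44 for EGR1. For others it was 1.42 for ID1, 1.31 for IER3, 1.15 for TGFBI, 1.09 for EGLN3, 0.97 for TJP3 and 0.93 for FOS. It came to 0.86 for SLC3A2, 0.83 for CDKN1A, 0.82 for CDH3, 0.78 for ABCC2, 0.78 for TGFA and 0.64 for HYOU1. The smallest were 0.63 for TXNRD1, 0.62 for BMF and 0.46 for MTHFD2. Among genes with a lower response in PC-9 it was -2.01 for ANKRD1, -1.73 for PEG10, -1.55 for PMEPA1, -1.53 for SEMA3C, -1.52 for CTGF and -1.51 for VIM. Further down it was -1.44 for PLK2, -1.43 for MARCHF4, -1.41 for CLDN1, -1.21 for BST2, -1.15 for FOXC1 and -0.90 for PSMB9. The remaining ones had -0.85 for CDKN2B, -0.82 for BTC, -0.76 for GBP1, -0.72 for CTH, -0.67 for SQLE and -0.57 for TNFAIP3.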

How the results depend on the processing

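Under 24 settings, none of the 45 named genes with a called difference changed sign. Uncalled differences near 0 did, among them those of SYK, EGFR, FOSL1, SP1, TGFB1 and of CAPN5, CFL2, DYNLRB1, PALLD, PTMA and TOR1B. The difference for SYK ranged from -0.04 to 0.17 when each library was left out in turn, and SYK could not be tested with the filter at a mean FPKM of 5. The count of genes whose response differs, 323, became 673 without a filter on low values, 154 with the filter at 5, 493 after rescaling to an equal sum (TPM), 556 after quantile normalization, 611 with all 18 libraries in the fit, 3427 with library weights (whose estimation did not converge), 961 after correction for length and GC content (lowess) and 95 when a difference of at least 1 was also asked. Under TPM rescaling 233 were higher and 260 lower in PC-9, beside 169 and 154, and PC-9 had 265 genes up and 637 down. The count for PC-9, 696, became 424 with the filter at 5, 1129 with 18 libraries, 5108 with weights, 1570 with that correction and 112 with each line fitted by itself. For HCC827, 2307 became 1399 with the filter at 5, 5031 with weights and 4209 with each line fitted by itself. Opposite changes, 29, became 11 with the filter at 5, 45 under quantile normalization, 57 with 18 libraries, 498 with weights, 94 with that correction and 8 with each line fitted by itself. Alike genes, 215, became 345 under quantile normalization, 394 with 18 libraries, 1851 with weights, 552 with that correction, 24 with each line fitted by itself, 36 with a limit of 0.3 and 345 with a limit of 1. The cause was not tested.

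Leaving out 1 library at a time gave 184 to 1919 differing genes, 275 to 1678 changed in PC-9, 1353 to 3895 in HCC827, 9 to 108 opposite and 74 to 591 alike. The highest counts came without PC-9 nc 1, or without PC-9 nc 2 for PC-9 and for alike genes. Without PC-9 nc 1, 1274 genes were higher and 645 lower in PC-9.

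With the replicate number as a block, 255 genes differed, 472 changed in PC-9 and 131 were alike, and ABCC2, HYOU1, MTHFD2 and TNFAIP3 lost their calls. Deviations of same-numbered nc and shSYK libraries had correlations of -0.07, 0.37 and -0.11 in PC-9 and -0.03, 0.07 and 0.05 in HCC827. Number 2 in each line and number 3 in HCC827 matched their own number best, and the rest did not. The numbers were therefore not taken to pair the samples. The median SE of a difference was 0.165 over all genes tested, and how it varies with depth was not tested.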
